A study of Homo sapiens with 9 samples.

Results

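PAX2, PAX8, SALL1, SIX2, LHX1, WT1, EYA1 and OSR1 are transcriptional regulators of the developing kidney, and their transcripts were examined here as the renal part of the expression profile of HEK293 cells. The genes were chosen by name, and every probe carrying 1 of these 8 names was taken. The array held 10 such probes among 50598, 2 each for PAX2 and EYA1 and 1 for each of the other genes, out of 36334 named genes in all. HEK293 is a human embryonic kidney line, made by transforming kidney cells in culture with adenovirus DNA. The cells carried HA-tagged MEK1, as the wild type (WT), the F53S mutant found in RASopathies or the K57N mutant found in cancers. MEK1 is the kinase that phosphorylates ERK, and all 3 lines had the endogenous MAP2K1 gene as well as the stably expressed protein. RNA was taken at steady state, with 3 arrays per line. Each mutant was represented by 1 stable line, so that the mutation and other differences between lines cannot be told apart, and no untransfected HEK293 cells were compared here.

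In the embryo, OSR1, EYA1, PAX2, PAX8 and LHX1 mark the mesoderm that gives rise to the kidney and its ducts. EYA1, a phosphatase and coactivator, works with SIX2 and its relatives, and SIX2 and SALL1 maintain the nephron progenitors that respond to signals from the ureteric bud. WT1, a zinc finger factor, acts in these progenitors and remains on in podocytes, the filtering cells of the glomerulus.

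In the HEK293 lines, 6 of the 8 genes were well above background on all 9 arrays: PAX2, SALL1, SIX2, LHX1, WT1 and EYA1. PAX8 and OSR1 were not, being above background on 1 and 2 arrays. Fitted without their slide, 0 of the 6 tested genes passed the test in any pair of lines. Of all genes tested, 2.75% passed between K57N and WT, 1.41% between K57N and F53S, and 0% between F53S and WT. With the slide in the fit, 4 of the 6 passed between K57N and WT, where 19.4% of all genes did: the levels of SIX2 and EYA1 were lower in the K57N line, and those of SALL1 and WT1 were higher. No tested member passed between F53S and WT by either fit.

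Values are log2 of the scanner's processed signal relative to the 75th percentile of the same array, so that 0 is the signal at that percentile. They compare 1 probe between arrays and not 1 gene with another. Tests were limited to probes that cleared background on each of the 3 arrays for 1 line or more, 25397 probes of 19209 genes. A gene passed at an adjusted p below 0.05 (limma, Benjamini-Hochberg over all probes). Replicate 1 of each line was on slide 1 and replicates 2 and 3 on slide 2. The 75th percentile lay between 245 and 376 on slide 1 and between 695 and 821 on slide 2, and the scanner called 23711 to 26110 and 27114 to 29319 probes above background. Since each slide held all 3 lines, the members are given with the slide in the fit and within each slide. The median standard error of a K57N to WT difference was 0.29, and 0.14 with the slide in the fit, and the number of arrays limits the precision. MAP2K1 had a level of 2.37 ± 0.04 for WT, 2.45 ± 0.06 for F53S and 2.85 ± 0.06 for K57N cells (SD, n = 3), a K57N to WT difference of 0.48 that did not pass (adjusted p = 0.135). Whether its probe reads the HA-MEK1 transcript is not given in the sources used here, so it does not check the labels.

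The second PAX2 probe is shown because the pair of PAX2 probes gave different pictures. It lies at chr10:102568921-102568980 on the plus strand of hg19, 20682 bases before the other PAX2 probe, and 2 of its 3 reading frames are free of stop codons.

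PAX2 second probe: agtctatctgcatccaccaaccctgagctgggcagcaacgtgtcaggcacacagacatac

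The array's annotation gives positions without naming exons or UTRs. RefSeq promoters on GRCh38.p14 were found for 4 of the 8 genes. The 250 bases before the start of SIX2 (chr2:45009453-45009702, minus strand) and of WT1 (chr11:32435540-32435789, minus strand, the first of 4 starts listed) are shown because these genes moved in opposite directions with the slide in the fit. Capitals mark every match, on either strand, to common promoter motifs. One is the GC box bound by SP factors, searched as GGGCGG. Another is the CCAAT box, searched by those 5 letters, and the TATA box was searched as TATAAA. For factors downstream of ERK, the ETS family motif was searched as CCGGAAG. The motif of the AP-1 family, dimers of FOS and JUN proteins, was searched as TGANTCA, where N is any base. No overlap between these motifs is forced by their letters.

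SIX2 promoter: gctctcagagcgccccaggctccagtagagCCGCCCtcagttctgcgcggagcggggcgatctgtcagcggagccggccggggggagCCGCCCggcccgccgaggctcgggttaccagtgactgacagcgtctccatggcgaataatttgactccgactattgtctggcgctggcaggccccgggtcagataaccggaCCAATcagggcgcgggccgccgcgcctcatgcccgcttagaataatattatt

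WT1 promoter: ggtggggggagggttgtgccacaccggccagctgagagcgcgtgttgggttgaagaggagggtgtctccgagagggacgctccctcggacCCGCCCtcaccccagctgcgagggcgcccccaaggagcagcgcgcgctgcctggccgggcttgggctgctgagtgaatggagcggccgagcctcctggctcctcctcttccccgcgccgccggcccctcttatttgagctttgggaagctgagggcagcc

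The SIX2 window held 2 GC boxes, 220 and 163 bases before the start, and 1 CCAAT box at 52 bases. The WT1 window held 1 GC box, at 160 bases. Of 35116 promoter windows of the same length, 42.6% held a GC box, 32% a CCAAT box, 10.7% a TATA box, 8.52% the ETS motif and 6.57% the AP-1 motif. The letters of the last 3 were in neither window. SIX2 held 26 CpG pairs and 65.6% G or C, and WT1 held 19 and 70.4%.

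SIX2 had the largest K57N to WT difference of the tested members in the fit of all 9 arrays, although that of LHX1 was larger on slide 1, after normexp background correction (1.04 against −0.72) and without K57N replicate 3 (1.45 against −1.13, and 1.5 against −1.24 with the slide). Its probe is at chr2:45233262-45233321 (hg19, minus strand). The log2 levels were −1.81, −2.66 and −2.44 on the WT arrays, −2.12, −2.74 and −2.50 on the F53S arrays, and −3.01, −3.85 and −3.73 on the K57N arrays, in the order of replicates 1, 2 and 3. All 3 K57N arrays lay below all WT and all F53S arrays. The K57N to WT difference was −1.23 (SE 0.31), or 2.35-fold, with an adjusted p of 0.0935. With the slide in the fit its adjusted p was 0.000556, with the replicate number in the fit 0.00101, and over all alternatives it ran from 0.000556 to 0.541. Each slide gave nearly the same value, −1.21 on slide 1 and −1.24 on slide 2. After normexp background correction the difference was −0.72. Against F53S cells SIX2 was lower by a log2 difference of −1.08 (adjusted p = 0.212, and 0.00166 with the slide), which was −0.66 (adjusted p = 0.791) after normexp background correction.

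EYA1, the partner of SIX2 and related factors, has both of its probes on chromosome 8. Levels on its brighter probe were −1.58, −2.35 and −2.38 in WT, −2.14, −2.46 and −2.47 in F53S, and −2.31, −3.06 and −3.03 in K57N cells. Within each slide K57N was lower than WT, by −0.73 on slide 1 and −0.68 on slide 2, although replicate 1 of K57N overlapped the WT arrays of the other slide. The difference was −0.70 (SE 0.29), or 1.62-fold, with an adjusted p of 0.341, and 0.00644 with the slide and 0.0160 with the replicate number. Over all alternatives this p ran from 0.00348 to 0.843. Without WT replicate 1 the difference was −0.44. The second EYA1 probe cleared background on 2 of the WT and 2 of the F53S arrays but on 0 of the K57N arrays, and was not tested. Its levels were −4.63, −4.72 and −4.53 in WT and −5.80, −5.08 and −5.41 in K57N cells. By a bound on the mean of the WT arrays, WT was 1.16-fold higher. For such a bound, the mean of the brighter line was set against, on each array, the higher of the dim probe and the lowest signal called above background. That signal is the lowest over all probes and not a detection limit of the dim probe, so the bound is approximate.

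SALL1, a zinc finger repressor needed for the ureteric bud to invade the mesenchyme, was probed at chr16:51170575-51170634. Its levels were −2.90, −3.14 and −2.95 in WT, −2.94, −2.84 and −2.92 in F53S, and −2.05, −2.49 and −2.64 in K57N cells. Every K57N array lay above every array of the other lines. The K57N to WT difference was 0.60 (SE 0.19), or 1.52-fold, with an adjusted p of 0.173, which was 0.0209 with the slide and 0.0404 with the replicate number. It was 0.85 on slide 1 and 0.48 on slide 2, and the adjusted p ran from 0.0209 to 1.0 over all alternatives. After normexp background correction 0.26 was left.

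WT1 was read by 1 probe repeated on 10 spots, at chr11:32410332-32410391. The spots of 1 array had an SD between 0.06 and 0.20. Mean levels were −2.65, −1.82 and −1.92 in WT, −2.78, −1.70 and −1.72 in F53S, and −1.55, −1.16 and −1.26 in K57N cells. On slide 1 the WT and F53S arrays were the lowest of the 9, and the K57N array of that slide was still above all WT and F53S arrays of both slides. K57N exceeded WT by 0.80 (SE 0.34), or 1.75-fold, with an adjusted p of 0.360, and 0.0102 with the slide and 0.0214 with the replicate number. The difference was 1.1 on slide 1 and 0.66 on slide 2, and over all alternatives the adjusted p ran from 0.00660 to 0.844. It was 0.49 after normexp background correction.

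LHX1, a LIM homeobox factor of the nephric duct and early nephron, was split within the K57N line. Its probe is at chr17:35300424-35300483. Levels were 2.57, 2.68 and 2.71 in WT, 2.72, 3.01 and 2.97 in F53S, and 3.92, 4.30 and 2.72 in K57N cells. Replicates 1 and 2 of K57N stood above every other array, while replicate 3 was just above the highest WT array. The K57N to WT difference was 0.99 (SE 0.36), with an adjusted p of 0.261, and 0.0977 with the slide in the fit. It was 1.35 on slide 1 and 0.81 on slide 2. Without K57N replicate 3 it was 1.45, with an adjusted p of 0.0257, and with the slide in the fit as well 1.5 and 0.000599, a setting chosen after the values were seen. Over all alternatives the p ran from 0.000599 to 0.672. LHX1 has a single spot, and the SD of its pixels was 32.3% of the mean on K57N replicate 3 and between 9.64% and 20.3% on the other arrays, with no flag from the scanner. The part of this unevenness in the low value was not tested.

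PAX2, the paired-box factor of the nephric lineage, showed no steady difference. On its brighter probe, at chr10:102589603-102589662, levels were −1.51, −2.42 and −2.32 in WT, −1.34, −1.90 and −2.03 in F53S, and −2.16, −1.91 and −2.0 in K57N cells. The spread among the WT arrays alone was wider than that among the K57N arrays. K57N was lower than WT on slide 1 by −0.65 and higher on slide 2 by 0.42, a pooled difference of 0.066 (95% interval −0.58 to 0.72, adjusted p = 0.989). Within slide 2 alone the adjusted p was 0.0267, and over all alternatives it ran from there to 1.0. The second PAX2 probe was above background on 1 array, an F53S array, and ranged from −7.78 to −4.24 over all arrays.

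PAX8 and OSR1 were not well above background on most arrays. PAX8, the close relative of PAX2, was above background on 1 K57N array, with levels of −5.81, −5.80 and −4.93 in WT, −4.19, −5.59 and −5.31 in F53S, and −4.68, −5.63 and −4.78 in K57N cells. OSR1, an early mesodermal zinc finger factor, was above background on 1 WT and 1 F53S array, with levels of −5.24, −4.11 and −6.06 in WT, −5.19, −2.35 and −4.88 in F53S, and −6.49, −6.96 and −5.64 in K57N cells. The value of −2.35 in F53S replicate 2 stood apart from its line. By the same kind of bound, OSR1 was 1.62-fold higher in F53S than in K57N cells. The bound used the mean of the 3 F53S arrays, of which 1 measured it, and no test was made. This bound rests on F53S replicate 2, since the other F53S arrays averaged −5.03, below the −4.83 set for the K57N arrays, and gave no fold.

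**Figure D1:**
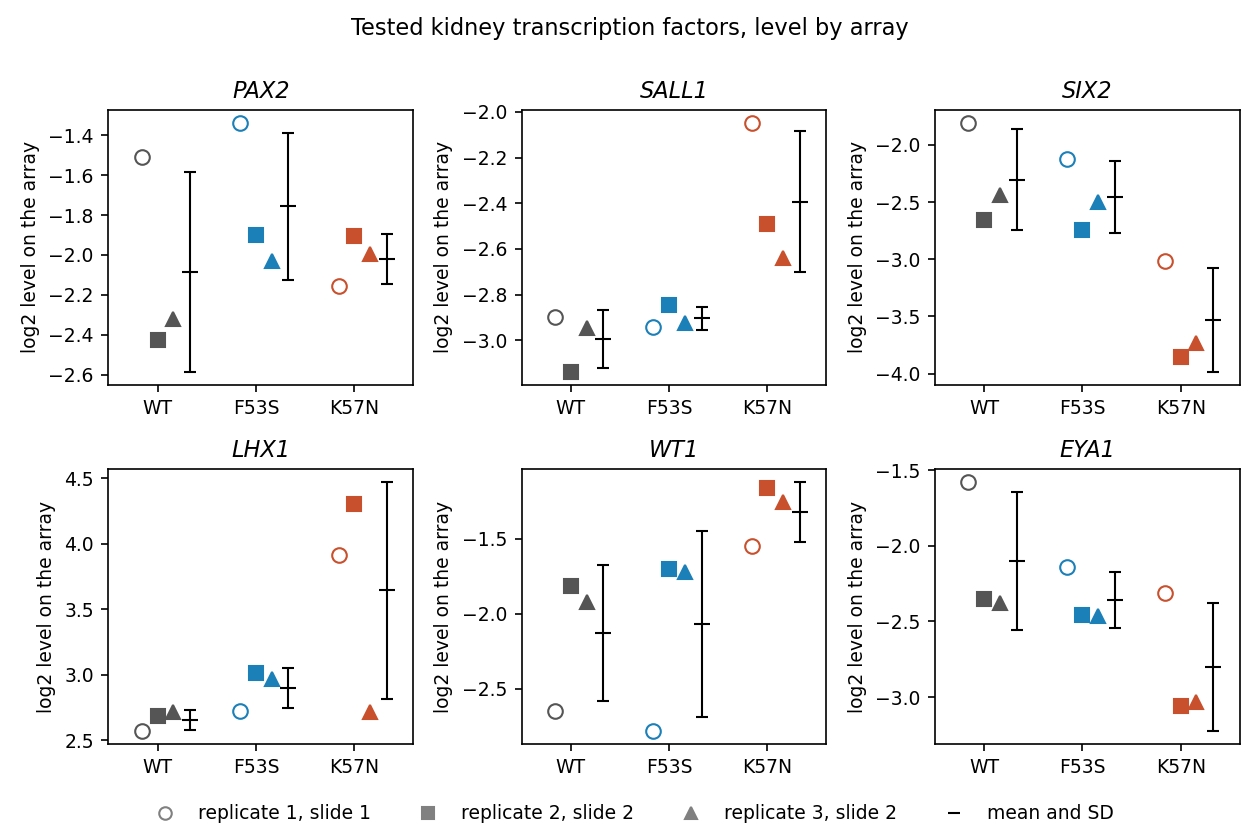
Log2 level relative to the 75th percentile of each array (vertical axes, which differ between panels) for the 6 tested members in the WT, F53S and K57N lines. Open circles are replicate 1 on slide 1, squares and triangles are replicates 2 and 3 on slide 2, and the black bars give mean and SD over 3 arrays. SIX2 lies lower and SALL1 and WT1 higher on all 3 K57N arrays, and EYA1 is lower in K57N on each slide. For LHX1, replicate 3 of K57N sits at 2.72, just above the highest WT value, and PAX2 overlaps throughout.

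At an unadjusted p below 0.05, limma gave 5 of the 6 for K57N against WT (13.2% of all genes) and 2 for K57N against F53S (10.4%), and the methods' t-test gave 3 (13.6%) and 2 (10.5%). In the limma fit of all 9 arrays without the slide, the smallest adjusted p of a member was the 0.0935 of SIX2. With the replicate number in the fit the same 4 members passed for K57N against WT as with the slide, where 14.8% of all genes did. For K57N against F53S, SIX2, EYA1, SALL1 and WT1 passed with the slide, where 13.4% of all genes did, and SIX2 and WT1 alone passed with the replicate number, where 8.92% of all genes did. On slide 2 alone 5 members passed for K57N against WT and 3 for K57N against F53S, where 22.5% and 15.3% of all genes did. With the slide in the fit and K57N replicate 3 left out these were 5 and 4, where 14.5% and 8.8% did. The K57N to F53S differences on slides 1 and 2 were −0.89 and −1.17 for SIX2, −0.17 and −0.58 for EYA1, 0.89 and 0.32 for SALL1, and 1.23 and 0.50 for WT1. Both slides thus had the same direction for these 4 members, with the values of EYA1, SALL1 and WT1 further apart than those of SIX2. LHX1 differed by 1.19 and 0.52, and PAX2 by −0.82 and 0.013. Over both slides SALL1 differed by 0.51, which was 0.15 after normexp and 0.34 without K57N replicate 1. WT1 differed by 0.74, which was 0.40 after normexp and 0.39 without F53S replicate 1. EYA1 differed by −0.44, and by −0.69 without K57N replicate 1. LHX1 differed by 0.74, which was 0.41 without K57N replicate 2 and 1.21 without K57N replicate 3. The arrays of K57N and WT did not overlap for 4 of the 6, against 22.9% of all genes, although for LHX1 the gap was between 2.715 and 2.714. For K57N against F53S this held for 3 of the 6, against 18.6%. The median difference of the tested members was 0.33 for K57N against WT, where the median of all genes was −0.06. These comparisons share the K57N arrays.

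For F53S against WT the differences lay between −0.26 for EYA1 and 0.33 for PAX2, the latter moving to 0.12 without F53S replicate 1 and to 0.62 without WT replicate 1. Every adjusted p was 1.0, also with the slide in the fit, and at an unadjusted p below 0.05 limma and the methods' t-test gave 0 members, where limma gave 0.89% and the methods' t-test 1.46% of all genes. On slide 2 alone 0 members and 0.0104% of all genes passed. The 95% intervals without the slide reached from −0.92 (EYA1) to 1.07 (LHX1). With the slide they were −0.59 to 1.09 for LHX1 and −0.52 to 0.011 for EYA1, and those of the other 4 lay between −0.42 (SIX2) and 0.82 (PAX2). An interval that includes 0 does not show that the lines were alike. LHX1 was the 1 member whose F53S and WT arrays did not overlap, 2.72 being the lowest F53S and 2.71 the highest WT value, against 3.15% of all genes.

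**Figure D2:**
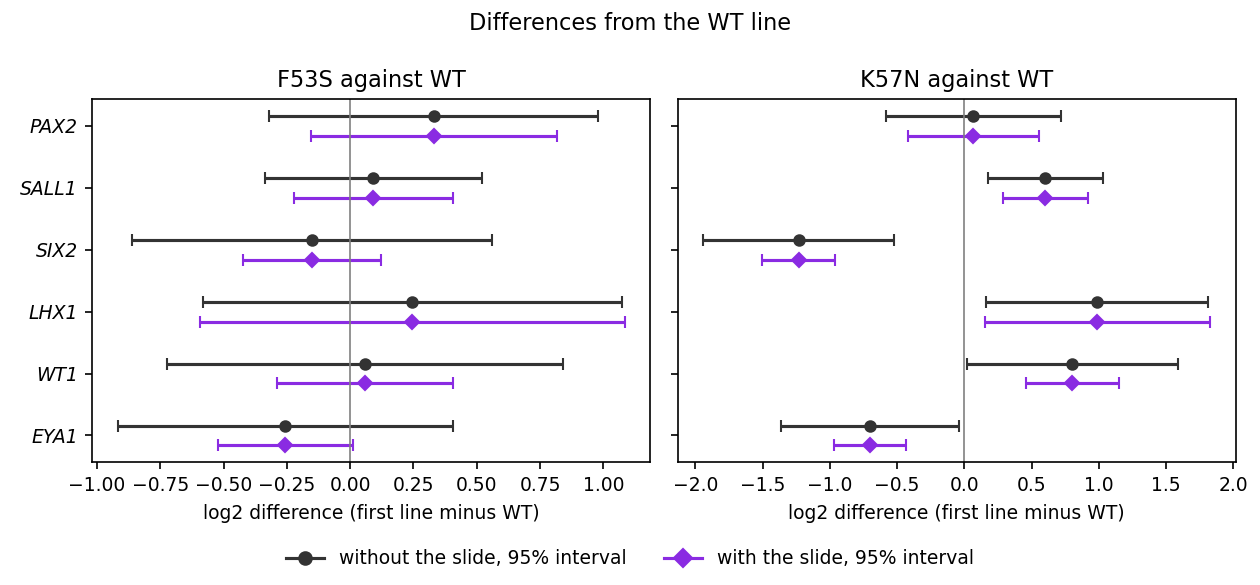
Log2 difference from the WT line (horizontal axes, with different ranges) of the 6 tested members in F53S (left) and K57N cells (right), with 95% intervals of the limma fit without the slide (circles) and with it (diamonds). All F53S intervals include 0, and the slide narrows the K57N intervals of SIX2, WT1 and EYA1 most, SIX2 staying at −1.23.

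**Figure D3:**
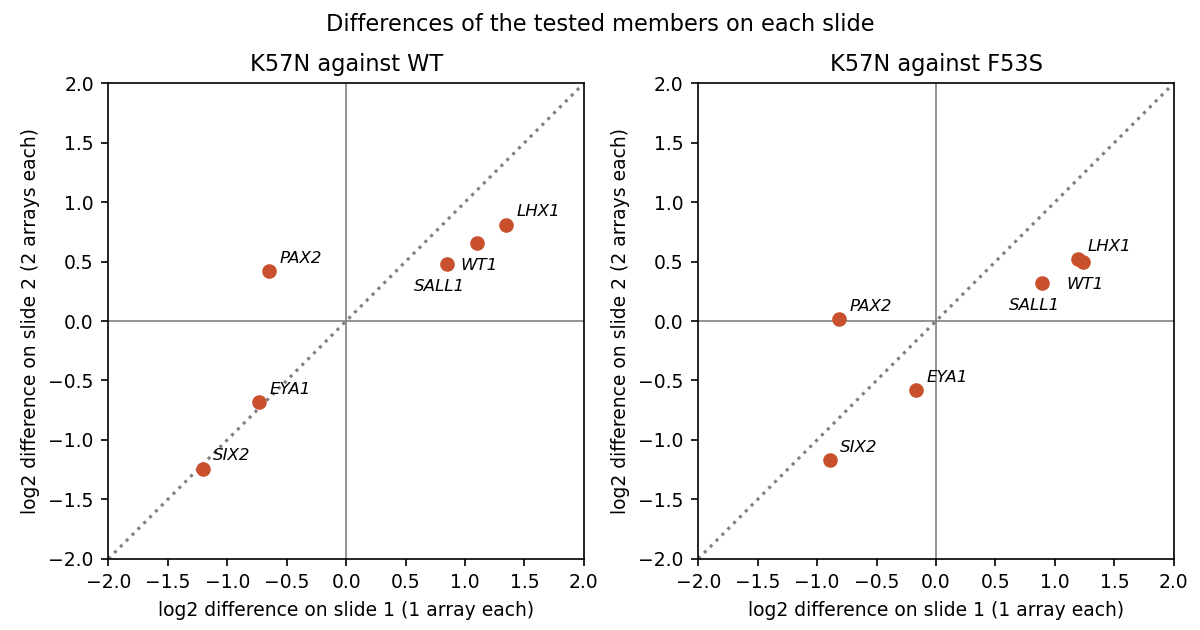
Log2 difference of the 6 tested members on slide 1 (horizontal, 1 array per line) and slide 2 (vertical, mean of 2 arrays per line) for K57N against WT and K57N against F53S, with the dotted line marking equal values. SIX2 and EYA1 lie near the line for K57N against WT (−1.21 and −1.24 for SIX2), and PAX2, at −0.65 and 0.42, changes side.

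Other genes of kidney development were read from 6 lists holding 149 genes besides the 8, of which 94 were tested. For K57N against WT 7 of the 94 passed, 1 upward and 6 downward, against 1.72% of all genes upward and 1.03% downward. SOX8, a SOX factor expressed in ureteric tips, rose by 1.80 on the log2 scale (SE 0.22, adjusted p = 0.00454), from 0.18 ± 0.24 in WT and 0.37 ± 0.27 in F53S to 1.98 ± 0.25 in K57N cells (SD, n = 3). DACH1, a corepressor that works with EYA1 and SIX2 and their relatives, fell by 1.03 (adjusted p = 0.0491). The other 5 are ligands, receptors or surface molecules. NPNT, nephronectin, a matrix ligand of integrin alpha8, fell by 2.22 (SE 0.32, adjusted p = 0.0104), from 0.93 ± 0.48 in WT to −1.30 ± 0.27 in K57N cells. SLIT2, the ligand of ROBO2 that limits budding of the ureter, fell by 1.60 (adjusted p = 0.00788). NCAM1, an adhesion molecule of condensing mesenchyme, fell by 1.18 (adjusted p = 0.0456). GPC3, a glypican, fell by 1.16 (adjusted p = 0.00812). FGFR2, a fibroblast growth factor receptor, fell by 0.92 (adjusted p = 0.0124) and is named outside the rule, after its value was seen. All 7 also passed with the slide and with the replicate number in the fit. SOX8, SLIT2 and GPC3 kept an adjusted p below 0.05 whichever array was left out, at most 0.0488. NPNT lost it without WT replicate 2 or 3, with at most 0.0531, and FGFR2 at most 0.0798 without one of WT or K57N replicates 2 and 3. DACH1 and NCAM1 lost their calls on leaving out any array but F53S replicate 1, with at most 0.163 and 0.179.

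By list, K57N against WT gave 2 of 25 tested among other kidney transcription factors, 5 of 25 among signals and receptors, and 0 of 23 among relatives of the 8 genes, 0 of 9 podocyte, 0 of 9 proximal tubule and 0 of 4 distal nephron markers. Median differences were −0.28, −0.10, −0.24, −0.18, −0.08 and −0.13 in that order, beside −0.06 over all genes. With the slide in the fit the lists gave 10, 15, 4, 4, 1 and 0 in the same order, together 34 of the 94, and with the replicate number 29 passed, where 19.4% and 14.8% of all genes did. The count was 3 without WT replicate 2, 3 without WT replicate 3, 4 without K57N replicate 2 and 4 without K57N replicate 3. For K57N against F53S 5 of 94 passed, where 1.03% of all genes passed upward and 0.38% downward: SOX8 rose by 1.61, and NPNT, SLIT2, GPC3 and FGFR2 fell by 1.73, 1.21, 0.99 and 0.75. That count was 0 on leaving out replicate 2 or 3 of F53S or of K57N, 1 without WT replicate 3, 2 without WT replicate 2 or K57N replicate 1, and 3 without F53S replicate 1. For F53S against WT 0 of 94 passed, as did 0% of all genes.

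The 2 genes whose probes had the highest signal in each kidney list were also read, a choice of probes that does not rank the genes by expression. None of those reported here passed without the slide, and NOTCH2, PODXL and CLIC5 passed with it (adjusted p = 0.00447, 0.0179 and 0.0421). The K57N to WT differences were −0.28 for HEY1 among transcription factors, −0.55 for NOTCH2 and 0.55 for BMP7 among signals, and −0.18 for LHX3 and −0.65 for SALL2 among relatives. In the markers of kidney segments they were 0.51 for CLIC5 and −0.45 for PODXL (podocyte), 0.06 for CDH2 and −0.29 for GGT1 (proximal), and −0.10 for CLDN19 and −0.14 for SLC4A1 (distal).

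Genes listed as markers of mature nephron segments were detected in part. How specific each is to its segment was not tested, so the counts do not show that a segment program is on. Of 21 markers of the loop of Henle, distal tubule and collecting duct, 4 were above background on all 9 arrays and 10 on none, the latter including AQP2, SLC12A1 and SLC12A3. Of 18 proximal tubule markers 9 were detected on all arrays, and CUBN, a receptor of protein uptake, on 1 WT array. Of 12 podocyte markers 8 were detected on all arrays, but NPHS1, nephrin of the slit diaphragm, was above background on 2 arrays. HNF4A, which drives the proximal tubule program, was above background on no array. Among relatives of the 8 genes, 22 of 26 were above background on all arrays.

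**Figure D4:**
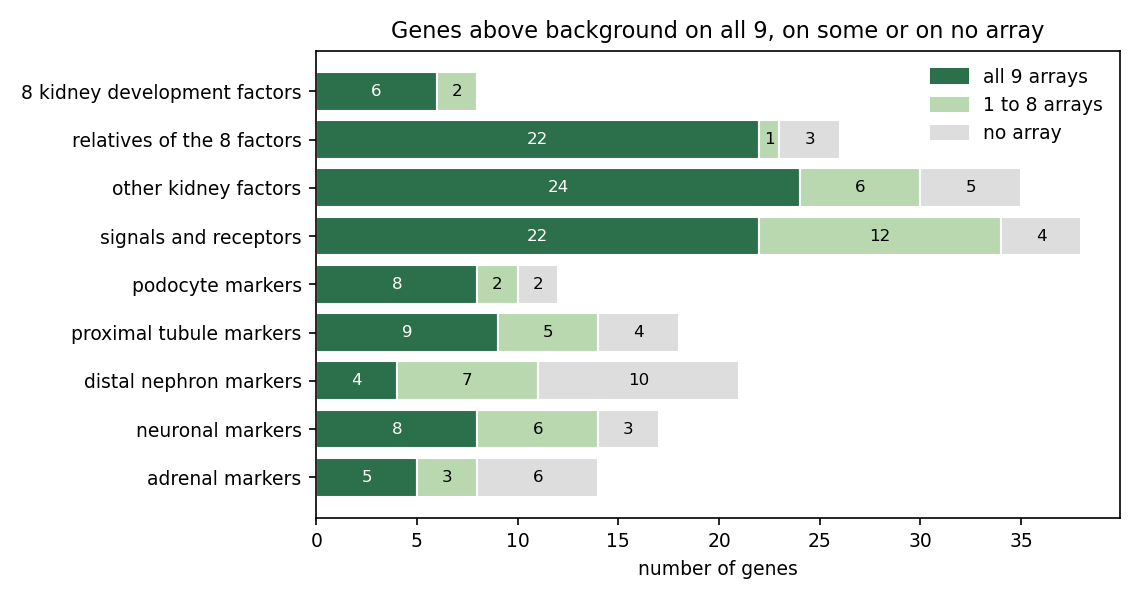
Number of genes of each list (horizontal axis) whose probe was well above background on all 9 arrays, on 1 to 8 arrays or on none. The 8 kidney development factors divide into 6 and 2, and the distal nephron markers, with 4, 7 and 10, have the largest count on no array.

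Because HEK293 cells have been described with neuronal and adrenal features, markers of both were read beside the members. Of 17 neuronal markers 8 were above background on all arrays, while ELAVL3, ELAVL4 and DCX were on none. Their summed level, in units of the 75th percentile signal, on slide 1 was 26.6 for the WT, 30.0 for the F53S and 32.9 for the K57N array, and on slide 2 it was 13.7 and 14.1 for WT, 15.0 and 15.0 for F53S, and 19.3 and 20.4 for K57N. On both slides K57N was above WT and F53S. The sum includes listed genes that were not above background, and its brighter probes weigh most. For K57N against WT 1 of the 8 tested passed without the slide, beside 2.75% of all genes: NCAM1, which is also in this list and fell. With the slide in the fit, where 19.4% of all genes passed, 3 rose and 2 fell: NEFL (0.50, adjusted p = 0.0193), TUBB3 (1.08, 0.00272) and GAP43 (1.09, 0.00704) were higher, and NCAM1 and SNAP25 (−0.86, 0.0121) lower. GAP43 and SNAP25 were named after their values were seen. Of 14 adrenal markers 5 were above background on all arrays, and the defining NR5A1, STAR and MC2R on none. Their summed level on slide 1 was 2.56, 3.15 and 3.69 for the WT, F53S and K57N arrays, and on slide 2 it was 1.35 and 1.55 for WT, 1.39 and 1.51 for F53S, and 2.23 and 2.29 for K57N. Here too K57N was above the other lines on each slide. NR0B1, a nuclear receptor of the adrenal cortex, rose by 2.55 in K57N against WT (adjusted p = 0.0216). It lost the call without any 1 of the WT or K57N arrays (at most 0.0922). NR0B1 was above background on 2 of the WT arrays, and so entered the tests through a mutant line and not through WT. Its difference includes a WT value that was not above background, so its size is approximate. TH and PNMT, enzymes of catecholamine synthesis, differed by 0.03 and 0.86 without passing. Of the 6 tested, 1 passed without the slide and 4 with it, beside the same 2.75% and 19.4% of all genes. The 4, all higher in K57N, were NR0B1 (adjusted p = 0.00165), PNMT (0.00190) and, named after their values were seen, CYP11A1 (0.91, 0.0113) and CHGA (1.26, 0.0118). In a culture, fewer cells of a kind and less RNA per cell cannot be told apart. The part of these markers in the members' differences was not tested.

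Probes lying within 120 kb of a member probe were examined after the members' values were seen. There were 33 of other transcripts, 17 of them tested, and 2 passed for K57N against WT, or 4 with the slide and 4 with the replicate number in the fit, where 2.75%, 19.4% and 14.8% of all genes did. WT1-AS, the antisense transcript beside WT1, was probed 51095 bases from the WT1 probe. Its levels were −1.66, −1.58 and −1.39 in WT, −1.44, −1.42 and −1.48 in F53S, and −0.72, −0.78 and −0.73 in K57N cells. It rose by 0.80 in K57N against WT (SE 0.14, adjusted p = 0.0253), the same size as the WT1 difference, and leaving out any array but F53S replicate 1 ended the call (at most 0.121). Its adjusted p was 0.00158 with the slide. Near LHX1, a noncoding transcript named XLOC_012452 by the array had 2 probes, 11014 and 10106 bases from the LHX1 probe. The farther one read 0.82, 0.35 and 0.31 in WT, 1.05, 0.59 and 0.54 in F53S, and 1.87, 1.54 and 1.58 in K57N cells. Here K57N replicate 3 was as high as replicate 2, unlike LHX1 itself. It rose by 1.17 (SE 0.22, adjusted p = 0.0307), and 7 of the 9 single omissions ended the call, at most at 0.139. With the slide the adjusted p was 0.000153. The nearer probe cleared background on all 3 K57N arrays but on 2 for F53S and 1 for WT, and so entered the tests through the K57N arrays. Its levels were −4.74, −4.73 and −5.62 in WT, −3.61, −4.19 and −5.02 in F53S, and −2.93, −3.41 and −3.35 in K57N cells. Since most WT arrays did not measure it, its difference is not read here, although it is 1 of the 4 probes that passed with the slide and with the replicate number. THC2731302, named so by the array and 81488 bases from the LHX1 probe, read −2.49, −3.62 and −3.26 in WT, −1.97, −3.05 and −3.16 in F53S, and −0.84, −1.93 and −1.93 in K57N cells. On it too K57N replicate 3 was level with replicate 2. It differed by 1.56 with an adjusted p of 0.142, and of 0.000170 with the slide and 0.000717 with the replicate number.

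**Figure D5:**
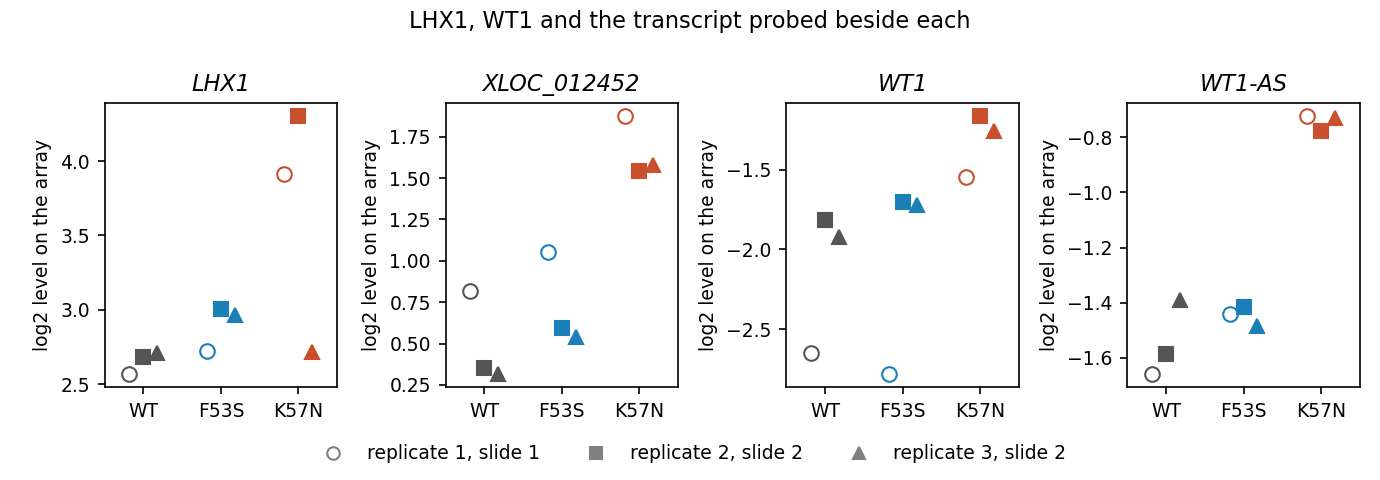
Log2 level on each array (vertical axes, which differ between panels) of LHX1, the farther XLOC_012452 probe, WT1 and WT1-AS in the 3 lines, with replicates marked as open circles (slide 1), squares and triangles (slide 2). K57N replicate 3 is at 2.72 for LHX1 beside 1.58 for XLOC_012452, where the other K57N arrays are 1.87 and 1.54, and all K57N arrays of WT1-AS lie between −0.78 and −0.72.

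Genes whose pattern over the 9 arrays was most like that of each member, after the mean of each slide was removed, were taken from 17024 genes above background on all arrays. The arrays are 3 lines with 3 arrays each, so such correlations can follow the line means or single arrays. They were picked as the highest among all these genes and are given as descriptions. For WT1 they were RECQL, ZSWIM6 and RMP24, with Pearson's r of at least 0.995, and of 0.942, 0.995 and 0.997 with slide means left in. For SIX2 they were LYPD6, LOC100130417 and the unnamed probe A_33_P3346526 (r = 0.99 for each). For EYA1 they were LOC729291, NSD2 and SMAD4 (0.99, 0.99 and 0.99), and for SALL1 they were USP33, ST7 and TMEM30A (0.99, 0.99 and 0.99). With slide means left in, the values for SMAD4, USP33 and TMEM30A were 0.30, 0.35 and 0.32. LHX1, with its low value on K57N replicate 3, was matched by TTI2 (0.97) and the unnamed probe A_33_P3323914 (0.97). PAX2 was matched by NUB1, CMTM1 and PACSIN2 (0.98, 0.97 and 0.97).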

How the data were processed

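RNA of 3 HEK293 lines was labeled with Cy3 and hybridized to Agilent SurePrint G3 Human GE arrays, from 3 independent experiments per the study's methods. The authors deposited the processed signal of Agilent Feature Extraction 10.10.1.1, an intensity after background subtraction with no scaling between arrays, and a table of log2 values. Subtracting 1 constant for each array turned the log2 processed signal into those deposited log2 values, within 0.02 for 99.5% to 99.8% of probes, and the table served as an alternative. No scaling between arrays is named in the sources used here.

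Here log2 signals were set relative to the 75th percentile of each array. Spots flagged uneven or outlying, 278 to 501 per array, and control spots were left out, and repeated spots were averaged. A gene was read by its brightest tested probe. Probes were named through RefSeq accessions (28173) or by the array (22425), on hg19. limma 3.58.1 in R 4.3.3 fitted 1 mean per line to all 9 arrays, with Benjamini-Hochberg adjustment, and was tested on simulated data. Plots used matplotlib 3.10.9. After line means were removed, arrays of 1 replicate number correlated across probes with r between 0.34 and 0.87 in all 9 pairs. Arrays of different numbers were not compared, and replicate 1 of each line was on slide 1. These correlations thus cannot tell pairing by number from the slide.

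The members, gene lists and tests were chosen with earlier results of these data known. Named were the members, MAP2K1, per list and comparison up to 3 passing genes with the largest difference and the 2 brightest, and the 3 genes most like each member; a few of these are not reported here. Alternatives were normexp (offset 50), quantile normalization, the deposited table, other filters, the mean of a gene's probes, slide and replicate blocks, 2 lines at a time, slide 2 alone, the methods' t-test with equal variance, a 2-fold limit and omission of each array.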

Additional observations from a re-analysis of the deposited data

How the results depend on the processing

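The F53S against WT counts were 0 under every alternative run, while the K57N counts moved most with the slide. For members, K57N against WT gave 0 and rose to 4 with the slide block, 4 with the replicate block, 5 on slide 2 alone and 5 with the slide block and K57N replicate 3 left out, fits in which 19.4%, 14.8%, 22.5% and 14.5% of all genes passed. K57N against F53S gave 4, 2, 3 and 4 in the same order, beside 13.4%, 8.92%, 15.3% and 8.8% of all genes. Without 1 array at a time the member counts ran from 0 to 1 (LHX1, without K57N replicate 3) for K57N against WT and stayed at 0 for K57N against F53S. The share of all genes passing in the fits without 1 array was not computed. For other kidney genes, the 7 of K57N against WT became 34, 29, 42 and 28 in that order, 1 by the methods' t-test and 1 with no filter on dim probes, and 3 to 8 without 1 array. The 5 of K57N against F53S became 29, 21, 33 and 22, then 0 by the t-test, 0 with no filter, 2 with 2 lines at a time, 2 with normexp, 2 with the deposited table and 3 beyond 2-fold, and 0 to 5 without 1 array.

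Counted once per member, comparison and alternative (21 alternatives, F53S against WT included), 337 member differences kept direction and side of the threshold, 32 passed and 9, none of which had passed, turned sign. PAX2 turned to 0.013 for K57N against F53S on slide 2 alone and to −0.024 for K57N against WT with the slide block and K57N replicate 3 left out. Without 1 array, PAX2 for K57N against WT ran from −0.10 to 0.35, and for F53S against WT PAX2 ran from 0.12 to 0.62, SIX2 from −0.33 to 0.10, WT1 from −0.20 to 0.42 and EYA1 from −0.39 to 0.0063. The causes were not tested. Normexp background correction brought SIX2, SALL1, WT1 and EYA1 nearer to 0 for K57N against WT. With 3 arrays per line, and 1 per line on slide 1, the number of arrays limits the precision.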
